A study of Sus scrofa domesticus with 6 samples.

Results

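Genes for enzymes that oxidise and conjugate drugs and other foreign compounds, and for the pumps that carry such compounds out of cells, were followed in the small intestine of irradiated minipigs. The rule that chose them used name and depth alone, though earlier results of these data were known when they were chosen. Rows of the gene table whose symbol begins with CYP, UGT or SULT and a number, or with ABCB, ABCC or ABCG and a number, came to 73. CYP51, ABCG1, ABCG5 and ABCG8, which serve sterol synthesis and sterol or lipid export, were left out, and of the 69 that remained 49 held at least 50 reads over the 6 libraries. These 49 members stood among 30352 named genes. They were 24 cytochrome P450 (CYP) genes, 3 UDP-glucuronosyltransferase family (UGT) genes, 4 sulfotransferase (SULT) genes, 7 ABCB genes, 9 ABCC genes and 2 ABCG genes. The filter on low counts kept 47 of them for testing. CYP4A21 (52 reads, all in IR 1) and CYP11A1 (67 reads, 53 of them in IR_Pra 2) lay just inside the 50-read limit and did not pass that filter. CYP26A1 (41 reads), CYP2C33 (37) and CYP21A2 (34) lay just outside it.

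Cytochrome P450 enzymes of families 1 to 3 add oxygen to lipid-soluble compounds, and UGT and SULT enzymes then attach glucuronic acid or sulfate, which makes the products easier to excrete. In the gut these enzymes sit mainly in the absorptive cells of the villus, with the pumps ABCB1 (P-glycoprotein), ABCG2 and ABCC2 in the membrane facing the lumen, so that together they limit how much of an oral drug reaches the blood. A shared name does not mean a shared job: ABCC8 and ABCC9 are subunits of potassium channels, several ABCB proteins work inside mitochondria, and the CYP27 and CYP39 enzymes act on sterols and vitamin D.

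RNA sequencing measured whole small intestine of wild-type Gottingen minipigs aged 6 months, 1 library per animal and 2 animals per group. The IR_Pra animals received 15 Gy of cobalt-60 gamma rays to the abdomen and pravastatin, a cholesterol-lowering drug, by mouth at 40 mg per day for 2 weeks. The IR animals received the same irradiation without the drug, and the control animals received neither. All tissue was collected on day 14. One label writes PS for the drug, and this was read as pravastatin.

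Libraries held 48600424 and 51106541 reads in IR_Pra, 62165352 and 73975174 in IR and 57905213 and 62071404 in control. Differences are given in CPM (library-scaled read counts, with the TMM correction for library composition), and levels of different genes are compared only in FPKM, which also divides by transcript length. Markers of intestinal epithelium were read in every library, though at far lower levels in IR 2. The absorptive enterocyte list (14 of 15 genes found, none at 0 reads in any library) summed to 20545 and 19547 CPM in IR_Pra, 51572 and 1191 CPM in IR and 26426 and 28775 CPM in control. In IR 1, 3 of its genes (FABP1, APOA4 and APOA1) made up 42238 CPM of that sum. The other 11 summed to 17236 and 14456 CPM in IR_Pra, 9334 and 525 CPM in IR and 22362 and 23733 CPM in control. Of these 11, 8 lay below the control mean in each IR_Pra library, 10 in IR 1, 11 in IR 2, and 6 and 5 in control. They were set apart after values had been seen, so that the lower IR 1 sum depends on which genes were left out. The general epithelium list, 8 of 8 genes, summed to 6305 and 5315 CPM in IR_Pra, 5770 and 1484 CPM in IR and 5209 and 6187 CPM in control. In IR 2, smooth muscle genes (9 of 9) summed to 71244 CPM, against 33451 CPM in IR 1, 14495 to 21258 CPM in IR_Pra and 6295 to 12826 CPM in control. Library IR 2 thus stood apart from the other 5 in epithelial RNA. Counts of members past the threshold and the fold changes of a few genes are given with and without it. Other fold changes include it. In a bulk library, fewer cells of a type and less RNA per cell cannot be told apart. IR 1 differed in a second way, since short transcripts stood higher in it than long ones: against the control mean, transcripts of up to 1124 nt had a median log2 difference of 0.498 there and those of 7514 nt or more -0.576. In the other irradiated libraries these medians lay between -0.127 and 0.126.

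Members took 0.214% and 0.226% of the reads in IR_Pra, 0.241% and 0.0748% in IR and 0.346% and 0.308% in control. Per transcript length, UGT1A6 and CYP3A29 had the highest mean levels over the 6 libraries, with 149 and 145 FPKM. They were followed by ABCG2 (82.0 FPKM), SULT1E1 (81.7), CYP4F2 (71.8), ABCB1 (47.4), CYP3A46 (39.2) and ABCB6 (29.9). The leading gene was not the same in all libraries. In IR_Pra, CYP3A29 made up 3.88% and 12.5% of the summed member FPKM and UGT1A6 27.7% and 20.2%. In IR 1 the shares were 16.0% for CYP3A29 and 22.4% for UGT1A6. In IR 2, CYP3A29 took 1.75% of the sum, and the mitochondrial transporter ABCB8 led with 11.6%. In control, CYP3A29 led with 28.3% and 18.3%, and UGT1A6 made up 12.3% and 11.9%. Of the 20 genes under 50 reads, 11 had no read in any library. Those at 0 included CYP1A2 and CYP2E1, major drug oxidases of liver, CYP7A1 and CYP8B1 of bile acid synthesis, and CYP24A1, which degrades vitamin D. The bile salt pump gene ABCB11 had 22 reads in all and SULT2A1, which sulfates steroids and bile acids, 20 reads. Liver RNA was near absent by its own markers: AHSG, FGA and APOH had no reads in any library and ALB at most 0.172 CPM. Hepatocyte list genes at 0 reads numbered 4 or 5 of 8 in every library, and the list's summed level, nearly all CPS1, which enterocytes also express, was 501 and 317 CPM in IR_Pra, 119 and 52.7 CPM in IR and 296 and 336 CPM in control.

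Setting IR against control asked which changes irradiation alone had left by day 14. With edgeR's quasi-likelihood test and Benjamini-Hochberg adjustment over 18197 genes, 2 of 47 tested members were higher in IR at an adjusted p under 0.05 (4.26%, against 3.39% of all genes) and 2 were lower (4.26%, against 2.68% of all genes). The members' share of calls was thus near that of the genome. The median log2 fold change of the 47 was -0.12, against 0.03 over all genes. At an unadjusted p under 0.05 there were 10 members (21.3%), against 30.2% of all genes. Both IR animals lay below both controls for 17 members (36.2%, against 30.0% of all genes) and above both for 10 (21.3%, against 29.8%).

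SULT1E1 (Entrez 397052, chromosome 8, 66811536 to 66838181), the estrogen sulfotransferase, had the widest difference. It stood at 162 and 126 CPM in IR_Pra, 7.21 and 1.48 CPM in IR and 366 and 384 CPM in control. Both IR animals lay far below the other 4, and no groups overlapped. The mean was 4.34 ± 4.05 CPM in IR and 375 ± 12.5 CPM in control (SD, n = 2 each), a log2 fold change of -6.44 ± 0.84 (SE, adjusted p = 0.0370). The fall against the control mean was -5.61 on log2(CPM + 0.5) in IR 1 and -7.57 in IR 2. The sulfotransferase 1B1 row nearby on chromosome 8 (LOC100624541) stood at 90.6 and 77.6 CPM in IR_Pra, 50.4 and 2.43 CPM in IR and 85.1 and 174 CPM in control, with a wide gap between the IR animals (log2 fold change -2.29 ± 1.202, adjusted p = 0.254).

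ABCB10 (Entrez 100153026, chromosome 14, 60309893 to 60346283), a transporter of the inner mitochondrial membrane, had 31.9 and 40.9 CPM in IR_Pra, 15.7 and 15.3 CPM in IR and 52.5 and 53.8 CPM in control. The IR pair differed by less than 1 CPM and lay below every other animal. IR averaged 15.5 ± 0.278 CPM and control 53.2 ± 0.867 CPM (SD, n = 2 each), with a log2 fold change of -1.78 ± 0.23 and an adjusted p of 0.0370. Marker lists were set beside SULT1E1 and ABCB10, and the epithelial ones were low mainly in IR 2. The absorptive enterocyte genes had a median difference from the control mean, on log2(CPM + 0.5), of -0.52 in IR 1 and -4.23 in IR 2, and the general epithelium genes 0.10 and -1.84. B cell genes (5 of 6 found, none at 0 reads) summed to 119 and 310 CPM in IR_Pra, 16.1 and 15.0 CPM in IR and 384 and 233 CPM in control, low in both IR animals. Enteroendocrine genes had a median difference of -1.15 in IR 1 and -1.12 in IR 2 on the same scale. The part of these cells in both results was not tested.

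Both members that rose were of low abundance. CYP2A19 (Entrez 403149, chromosome 6, 49056579 to 49064111), whose enzyme breaks down skatole in pig liver, had 2.26 and 2.51 CPM in IR_Pra, 7.60 and 5.02 CPM in IR and 1.06 and 0.667 CPM in control. The IR animals were highest, IR_Pra lay between, and control was lowest, with no overlap between any pair of groups (log2 fold change of IR over control 2.87 ± 0.44, adjusted p = 0.0370). SULT4A1 (Entrez 100523243, chromosome 5, 5131272 to 5156898), a sulfotransferase of neurons with no settled substrate, had 1.12 and 0.844 CPM in IR_Pra, 3.99 and 6.77 CPM in IR and 0.796 and 0.921 CPM in control. IR stood above the other groups, which overlapped each other (log2 fold change 2.65 ± 0.46, adjusted p = 0.0410). Enteric neuron and glia genes moved with it: that list, chosen after values had been seen, with 12 of 13 genes found and none at 0 reads, summed to 109 and 106 CPM in IR_Pra, 273 and 457 CPM in IR and 87.7 and 92.0 CPM in control. Other lists rose as well, among them smooth muscle. Fibroblast genes summed to 7921 and 24596 CPM in IR against 1825 and 3135 CPM in control, and macrophage genes to 2528 and 2958 CPM against 495 and 507 CPM. Enteroendocrine genes did not rise, with summed levels of 326 and 198 CPM in IR and 354 and 250 CPM in control. Their median difference from the control mean, on log2(CPM + 0.5), was -1.15 in IR 1 and -1.12 in IR 2. The part of these cells in the SULT4A1 result was not tested.

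**Figure D1:**
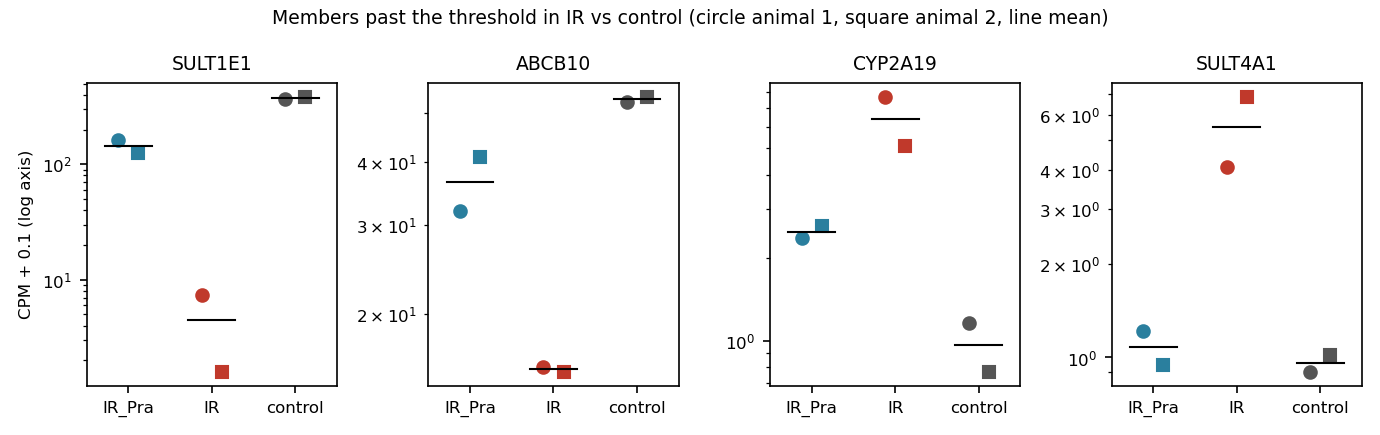
CPM (plotted as CPM + 0.1, log axis) of the 4 members past the threshold between IR and control, for each animal (circle animal 1, square animal 2) with the group mean as a line. SULT1E1 and ABCB10 are lowest in both IR animals and CYP2A19 and SULT4A1 are highest there, with IR_Pra between IR and control for SULT1E1, ABCB10 and CYP2A19.

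All 4 calls were lost when a control or an IR_Pra library was left out. Without control 1 or control 2 their adjusted p lay between 0.174 and 0.238, and without IR_Pra 1 or IR_Pra 2 it was 0.102 for each, so that no member passed, nor did any other gene. Their log2 fold changes in these 4 fits stayed between -6.38 and -6.28 for SULT1E1, -1.76 and -1.69 for ABCB10, 2.67 and 3.29 for CYP2A19, and 2.57 and 2.81 for SULT4A1. Over all alternative settings listed below, SULT4A1 passed in 9 of 18, with log2 fold changes from 1.21 to 2.97. Each of the others passed in 13 of 19. Without IR 1 the count of members was 27 (57.4%, against 29.5% of all genes), and without IR 2 it was 12 (25.5%, against 18.2%). Each of these fits holds 1 IR animal, which is assumed to vary like the other groups, so that their p-values do not measure the spread between IR animals. The 7 members called both times, in the same direction, included SULT1E1, ABCB10 and UGT8 (lower) and CYP2A19, SULT4A1 and ABCB8 (higher). Calls made only without IR 1 came from a fit with IR 2 as its sole IR animal. They went in both directions, with log2 fold changes of -4.16 for ABCB1 and -4.46 for ABCG2, but 1.24 for ABCC5 and 1.22 for CYP4V2. Calls made only without IR 2 came from a fit with IR 1 as its sole IR animal.

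The CYP3A genes, the largest drug oxidase group of the gut, lay below both controls in both IR animals but differed widely between these 2. CYP3A29 (Entrez 403324, chromosome 3, 6738502 to 6778121) had 57.3 and 201 CPM in IR_Pra, 358 and 7.59 CPM in IR and 791 and 443 CPM in control. All irradiated animals, with or without pravastatin, lay below both controls, but they spanned a wide range (log2 fold change of IR over control -1.75 ± 1.49, adjusted p = 0.462, and of IR_Pra over control -2.26 ± 1.51, unadjusted p = 0.187). CYP3A46 beside it (Entrez 100126281, chromosome 3, 6677911 to 6709855) followed the same order of animals, with 8.57 and 63.8 in IR_Pra, 81.2 and 3.02 in IR and 181 and 142 in control (CPM). CYP3A22, the third of the cluster, had 0 and 7.56 in IR_Pra, 4.18 and 0 in IR and 7.05 and 13.5 in control (CPM) and no read at all in IR_Pra 1 or IR 2. Neither passed the threshold in any comparison. Both IR_Pra 1 and IR 2 were low for all 3 genes, with absorptive enterocyte sums of 20545 CPM in IR_Pra 1 and 1191 CPM in IR 2. Reads of these close relatives may have been split among them, since the way shared reads were assigned was not given in the sources used here.

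CYP2B22 (Entrez 403104, chromosome 6, 49158175 to 49173872) also had its lowest value in IR_Pra 1, with 1.54 and 28.4 CPM in IR_Pra, 15.4 and 2.80 CPM in IR and 33.5 and 89.2 CPM in control. Its groups did not overlap between IR and control or between IR_Pra and control, and the log2 fold changes of -2.76 ± 1.41 and -2.03 ± 1.37 did not pass (adjusted p = 0.245 and 1). The CYP2B4-like row beside it on chromosome 6 (LOC102165015) gave the same order, 1.47 and 18.4 in IR_Pra, 11.5 and 2.496 in IR and 27.1 and 57.6 in control (CPM).

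Other drug oxidases peaked in IR 1. CYP2D25 (Entrez 397687, chromosome 5, 6539021 to 6543643), which in pig also makes 25-hydroxyvitamin D, stood at 34.8 and 12.9 CPM in IR_Pra, 80.1 and 0.581 CPM in IR and 1.89 and 2.38 CPM in control. Both IR_Pra animals and IR 1 lay above the controls and IR 2 below them (log2 fold change of IR over control 4.24 ± 1.86, adjusted p = 0.188, and of IR_Pra over control 3.48 ± 1.79, unadjusted p = 0.102). CYP1A1 (Entrez 403103, chromosome 7, 58802887 to 58809155), the classical target of the aryl hydrocarbon receptor, had 4.42 and 1.69 CPM in IR_Pra, 18.8 and 0.304 CPM in IR and 0.831 and 0.730 CPM in control, again with IR_Pra and IR 1 above the controls and IR 2 below them (log2 fold change of IR over control 3.61 ± 1.62, adjusted p = 0.198). Without IR 1 both log2 fold changes turned negative, -1.88 for CYP2D25 and -1.35 for CYP1A1. CYP2C34 had 0 and 0.169 in IR_Pra, 14.1 and 0 in IR and 0.467 and 0.810 in control (CPM), so that nearly all of its reads came from 1 animal. The neighbouring CYP2C32, CYP2C36 and CYP2C49 showed the same excess in IR 1, with 3.73, 2.80 and 6.89 CPM there, and no other library above 2.06 CPM. For CYP2C34 the log2 fold change of IR over control was 3.45 ± 2.14 and became -8.28 without IR 1, a fitted value that depends on the prior count, since IR 2 had no reads.

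CYP2C42, the most abundant CYP2C gene, took the other direction, with 12.1 and 12.6 CPM in IR_Pra, 7.49 and 2.85 CPM in IR and 9.99 and 18.8 CPM in control (log2 fold change of IR over control -1.48 ± 0.54, adjusted p = 0.136). The neighbouring CYP2C91, annotated as a pseudogene, had 4.27 and 6.19 CPM in IR_Pra, 8.19 and 10.1 CPM in IR and 3.62 and 2.00 CPM in control (log2 fold change 1.70 ± 0.42, adjusted p = 0.0663). The annotated spans of these 2 genes share 5113 bases on chromosome 14, and reads from the shared stretch may count for either. CYP2J34, of a family that makes epoxides from fatty acids, had 7.18 and 14.1 in IR_Pra, 18.1 and 3.18 in IR and 14.0 and 23.7 in control (CPM), overlapping between all groups. CYP2R1, the other vitamin D 25-hydroxylase, stood at 9.40 and 6.83 in IR_Pra, 6.04 and 2.63 in IR and 7.67 and 8.65 in control (CPM), lower in both IR animals than in the rest (log2 fold change -0.92 ± 0.46, adjusted p = 0.238). Of the 15 tested CYP1 to CYP3 genes, 10 lay more than 1 log2 unit below the control mean in IR 2 (66.7%, against 15.6% of all genes). The count was 7 in IR_Pra 1 (46.7%, against 2.56%), 3 in IR_Pra 2 (20%, against 1.77%) and 2 in IR 1 (13.3%, against 13.7%).

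**Figure D2:**
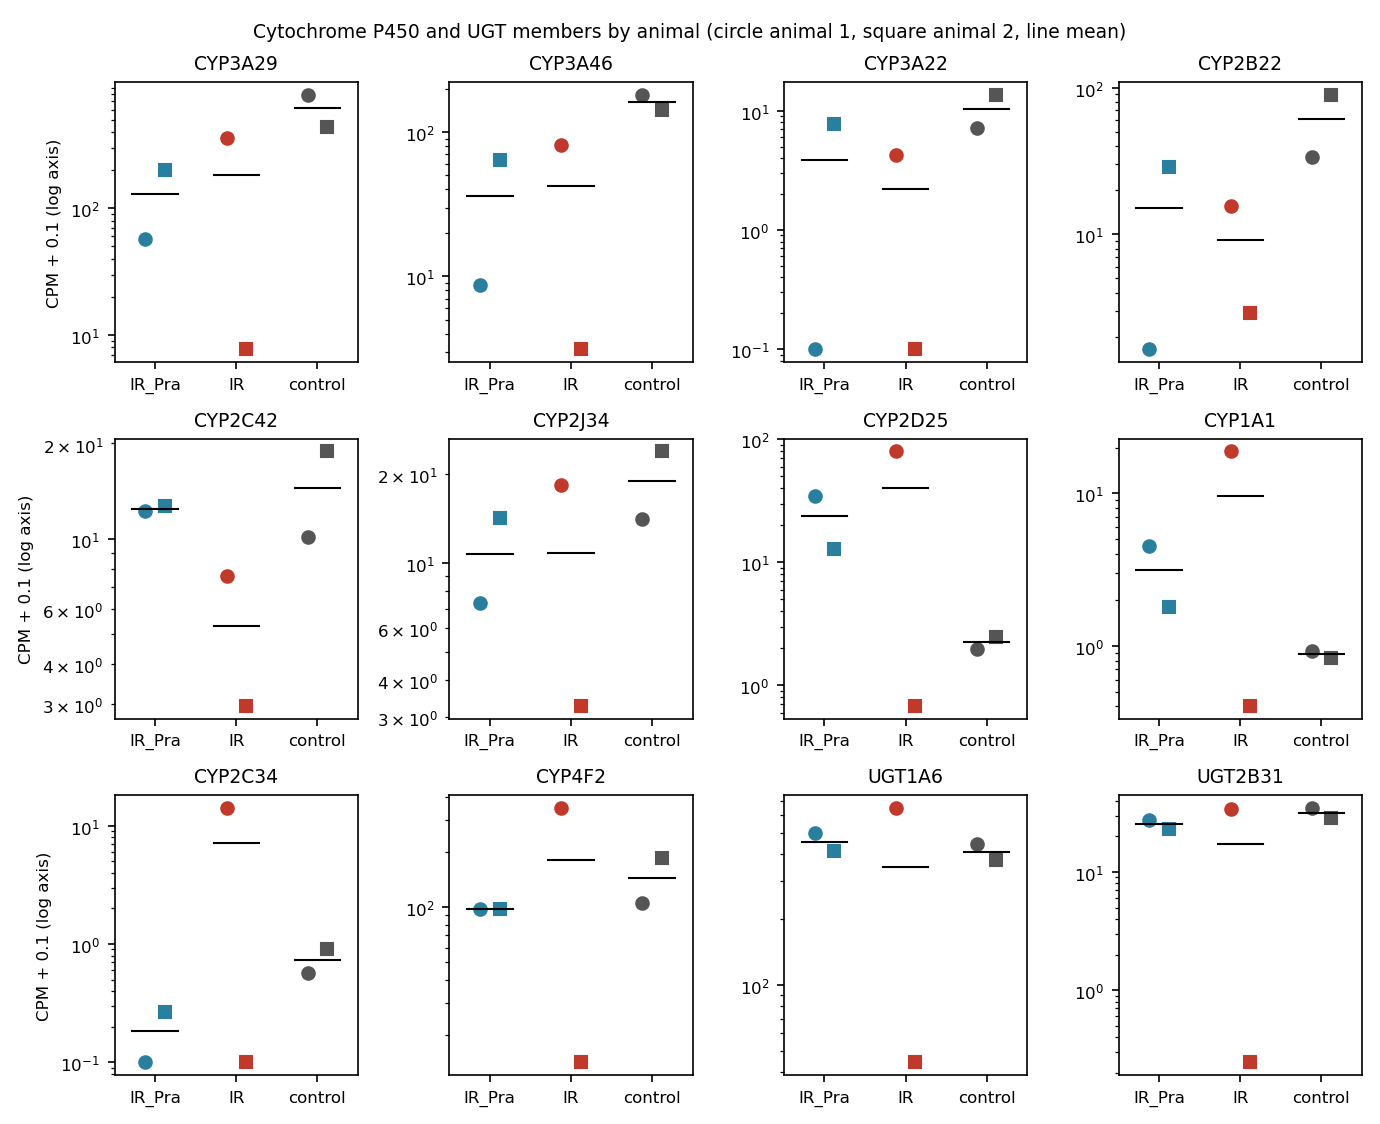
CPM (plotted as CPM + 0.1, log axis) of 10 cytochrome P450 genes and 2 UGT genes for each animal (circle animal 1, square animal 2), with the group mean as a line. IR 2 is the lowest or near the lowest animal in all 12 panels, CYP3A29, CYP3A46 and CYP2B22 are also low in IR_Pra 1, and CYP2D25, CYP1A1 and CYP2C34 peak in IR 1.

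The CYP4 family hydroxylates the end of fatty acid chains. CYP4F2 (Entrez 100113470, chromosome 2, 61745069 to 61759971), which acts on vitamin K and leukotriene B4 in human, ranged from 14.1 CPM in IR 2 to 349 CPM in IR 1, with 97.3 and 98.0 CPM in IR_Pra and 105 and 184 CPM in control. The 2 IR animals thus bracketed all others, and the log2 fold change of IR over control was 0.32 ± 1.19. CYP4F55 was lower in all 4 irradiated animals, with 22.7 and 22.3 in IR_Pra, 28.01 and 12.6 in IR and 33.8 and 34.7 in control (CPM), and did not pass (adjusted p = 0.249 for IR over control). CYP4V2 went the other way from the epithelial genes, at 44.4 CPM in IR 2 and 17.0 to 24.5 CPM elsewhere.

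No sterol or vitamin D enzyme gene passed the threshold. CYP27A1, the sterol 27-hydroxylase, had 25.2 and 32.7 CPM in IR_Pra, 79.8 and 31.4 CPM in IR and 49.8 and 70.8 CPM in control, lower in both IR_Pra animals than in both controls (log2 fold change -1.06 ± 0.47, unadjusted p = 0.066). CYP39A1, which hydroxylates oxysterols, and CYP27B1, which makes the active form of vitamin D, had log2 fold changes of -0.06 ± 0.38 and 0.15 ± 0.68 in IR over control, each less than its standard error. The orphan enzyme gene CYP20A1 had 0.51 ± 0.34. CYP11A1, the first enzyme of steroid hormone synthesis, was read only at trace level, and adrenal and gonad markers summed to 0.212 to 0.651 CPM in every library.

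Of the glucuronosyltransferase genes, UGT1A6 (Entrez 100152603, chromosome 15, 133968693 to 134049029), which acts on phenols, had 498 and 411 CPM in IR_Pra, 650.3 and 44.1 CPM in IR and 442 and 374 CPM in control. It was within or above the control range in every animal but IR 2. UGT2B31 (Entrez 100514063, chromosome 8, 66310697 to 66323755) had 27.2 and 23.2 CPM in IR_Pra, 34.2 and 0.145 CPM in IR and 34.9 and 28.3 CPM in control, lowest in IR 2, where it had 11 reads, and with both IR_Pra animals below both controls. Neither passed the threshold (adjusted p = 0.900 and 0.751 for IR over control). UGT8 (Entrez 100511825, chromosome 8, 108233134 to 108315284), which makes galactosylceramide and is no drug enzyme, had 77.7 and 60.7 CPM in IR_Pra, 35.3 and 4.001 CPM in IR and 104 and 86.2 CPM in control, and each IR animal lay below the other 4 (log2 fold change of IR over control -2.28 ± 0.90, adjusted p = 0.159). Its log2 fold change was -4.57 without IR 1 and -1.43 without IR 2. The other sulfotransferases were less abundant than SULT1E1 per transcript length. SULT1A3, which the annotation also lists as SULT1A1 and which sulfates phenols, had 10.1 and 15.3 in IR_Pra, 16.4 and 21.9 in IR and 15.2 and 8.76 in control (CPM) and a log2 fold change of 0.67 ± 0.39 in IR over control. SULT2B1, a cholesterol sulfotransferase, had 1.45 and 1.61 in IR_Pra, 4.22 and 0.964 in IR and 1.59 and 0.397 in control (CPM) with overlapping groups.

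Among the efflux pumps of the luminal membrane, ABCB1 (Entrez 396910, chromosome 9, 93049955 to 93146469), which expels a broad range of drugs, had 212 and 214 CPM in IR_Pra, 181 and 15.1 CPM in IR and 342 and 199 CPM in control. ABCG2 (Entrez 397073, chromosome 8, 130853414 to 130945388), the breast cancer resistance protein, had 153 and 158 CPM in IR_Pra, 168 and 13.5 CPM in IR and 324 and 267 CPM in control. Each was lower in both IR animals than in both controls, and neither passed (log2 fold change -1.46 ± 1.001, adjusted p = 0.367 for ABCB1, and -1.70 ± 0.997, adjusted p = 0.298 for ABCG2). Against the control mean, ABCB1 was -0.52 in IR 1 and -4.07 in IR 2 on log2(CPM + 0.5), and ABCG2 -0.81 and -4.40. ABCG2 in IR_Pra stayed below both controls (log2 fold change of IR_Pra over control -0.93 ± 0.98, unadjusted p = 0.379), and its IR_Pra values overlapped those of IR. ABCB1 in IR_Pra overlapped control and lay above both IR animals (log2 fold change of IR_Pra over IR 1.12 ± 0.99, adjusted p = 0.519). ABCC2, which carries conjugates and, in human and rat, pravastatin, had 11.6 and 44.5 CPM in IR_Pra, 74.4 and 1.39 CPM in IR and 58.6 and 78.2 CPM in control, with IR 2 and IR_Pra 1 lowest. An ABCG2-like row (LOC110255210) next to ABCG2 on chromosome 8 gave 117 and 117 in IR_Pra, 117 and 9.32 in IR and 226 and 197 in control (CPM). In it IR 2 was lowest and both controls highest, as for ABCG2. A shorter ABCG2-like row lies within the ABCG2 span over 8902 bases, so reads may be shared among these rows.

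The pumps of the membrane facing the blood did not share the low value of IR 2 to that degree. ABCC3 had 71.6 and 61.3 CPM in IR_Pra, 65.1 and 37.4 CPM in IR and 52.3 and 46.1 CPM in control, higher in IR_Pra than in control (log2 fold change 0.43 ± 0.31, unadjusted p = 0.22). ABCC1, which exports glutathione conjugates, had 48.5 and 54.5 CPM in IR_Pra, 38.5 and 82.6 CPM in IR and 48.3 and 44.6 CPM in control, highest in IR 2. ABCC4, an exporter of cyclic nucleotides and drugs, stood at 11.2 and 11.3 in IR_Pra, 7.08 and 9.03 in IR and 13.2 and 9.29 in control (CPM). ABCC5, another exporter of cyclic nucleotides, had 58.3 and 79.7 CPM in IR_Pra, 71.1 and 93.2 CPM in IR and 37.0 and 42.0 CPM in control. For ABCC5 all 4 irradiated animals lay above both controls, with log2 fold changes of 1.06 ± 0.27 in IR over control (adjusted p = 0.0689) and 0.81 ± 0.27 in IR_Pra over control (unadjusted p = 0.025, adjusted p = 1). The last 2 comparisons share the control animals.

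The remaining ABCC genes differed by role. ABCC6, which limits tissue calcification, had 24.7 and 23.2 in IR_Pra, 21.9 and 3.59 in IR and 27.2 and 40.0 in control (CPM), low in IR 2. The potassium channel subunit ABCC8 had 1.02 and 2.36 in IR_Pra, 6.39 and 3.45 in IR and 2.72 and 2.64 in control (CPM), higher in both IR animals than in the other 4, and ABCC9, the subunit of muscle and vessel channels, reached 15.5 CPM in IR 2 against 5.05 to 7.78 CPM elsewhere. Smooth muscle genes were also highest in IR 2, and their part in the ABCC9 value was not tested. ABCC10 ranged only from 50.1 to 74.8 CPM over the 6 animals.

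The mitochondrial ABCB genes went in different directions. Whereas ABCB10 was lower in IR, ABCB8, part of a potassium channel of the inner membrane, was higher there, with 68.3 and 60.3 CPM in IR_Pra, 94.8 and 105 CPM in IR and 52.2 and 57.8 CPM in control (log2 fold change of IR over control 0.86 ± 0.22, adjusted p = 0.0672). The 2 IR animals were close to each other for ABCB8 and above the other 4, and the gene missed the threshold in the fit of all 6 libraries. ABCB6, which carries porphyrins, had 99.8 and 103 in IR_Pra, 80.8 and 18.4 in IR and 100.1 and 133 in control (CPM) and was low in IR 2. ABCB4, which moves phosphatidylcholine into bile, and the lysosomal peptide transporter ABCB9 overlapped between IR and control, with log2 fold changes of -0.65 ± 0.91 and -0.36 ± 0.38. ABCG4, a sterol transporter of the brain, had 0.599 and 1.28 in IR_Pra, 2.23 and 2.55 in IR and 1.19 and 2.16 in control (CPM) and a log2 fold change of 0.51 ± 0.54.

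**Figure D3:**
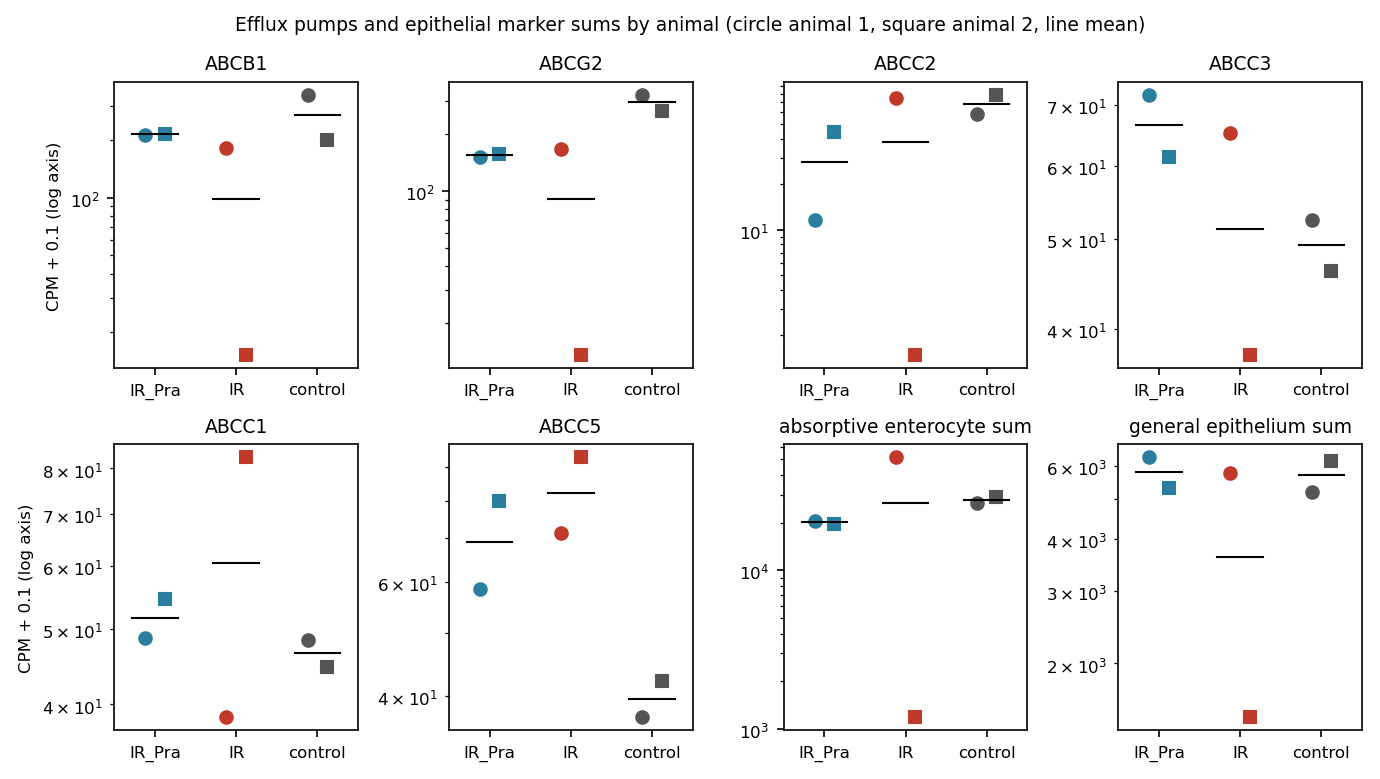
CPM (plotted as CPM + 0.1, log axis) of 6 efflux pump genes, and the summed CPM of the absorptive enterocyte and general epithelium lists, for each animal (circle animal 1, square animal 2) with the group mean as a line. ABCB1, ABCG2 and ABCC2 drop in IR 2 as the epithelial sums do. ABCC2 is also low in IR_Pra 1, where the general epithelium sum is not. ABCC1 is highest in IR 2, and ABCC5 is above control in all 4 irradiated animals.

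Seen by animal, the members were furthest from control in IR 2. The median difference of the 47 from the control mean, on log2(CPM + 0.5), was -0.21 in IR_Pra 1, -0.16 in IR_Pra 2, 0.12 in IR 1 and -0.97 in IR 2. More than 1 log2 unit below the control mean were 11 members in IR_Pra 1 (23.4%, against 2.56% of all genes), 4 in IR_Pra 2 (8.51%, against 1.77%), 5 in IR 1 (10.6%, against 13.7%) and 23 in IR 2 (48.9%, against 15.6%). The 3 UGT genes had a median of -4.40 in IR 2 and the 9 ABCC genes -0.26. The absorptive enterocyte genes had a median of -0.31 in each IR_Pra library, -0.52 in IR 1 and -4.23 in IR 2, and the general epithelium genes -0.05, -0.02, 0.10 and -1.84. Their part in the members' values was not tested.

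**Figure D4:**
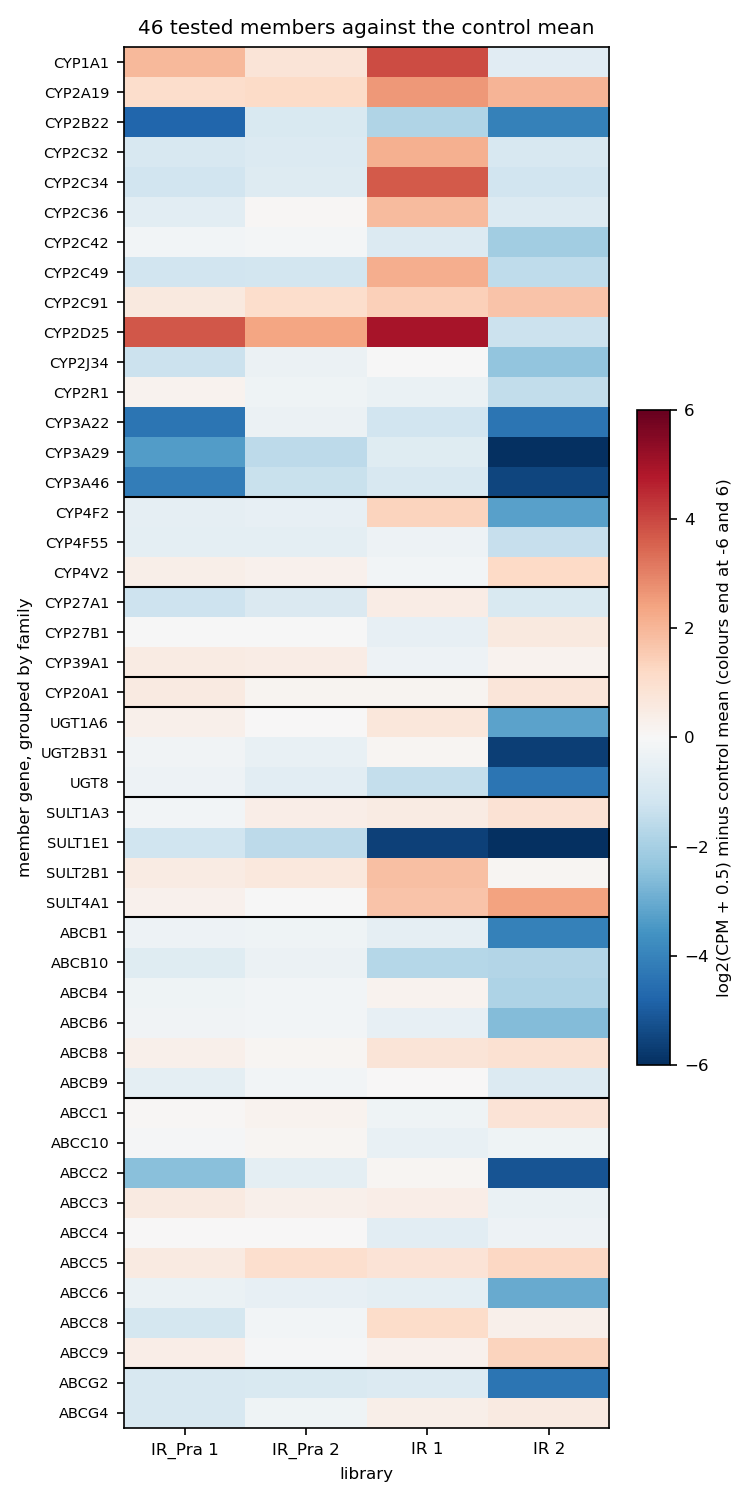
Difference of each irradiated library from the control mean, on log2(CPM + 0.5), for 46 of the 47 tested members grouped by family (rows); colours run from -6 (blue, lower) to 6 (red, higher). IR 2 holds most of the deep blue cells, IR_Pra 1 shares them for CYP3A and CYP2B22, CYP1A1, CYP2C34 and CYP2D25 are each reddest in IR 1, CYP2D25 being red in both IR_Pra libraries as well, and SULT1E1 is blue in all 4.

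Setting IR_Pra against IR asked what the drug changed after irradiation. No member passed (edgeR's quasi-likelihood test with Benjamini-Hochberg adjustment), against 0.00550% of all genes, which was 1 gene. At an unadjusted p under 0.05 there were 8 members, 3 higher and 5 lower in IR_Pra (17.0%, against 24.5% of all genes). Limma voom and limma trend on log2(FPKM + 1) also called 0, and DESeq2 called 5 (10.6%, against 15.8% of all genes), among them SULT1E1 and ABCB10, higher, and CYP2A19 and SULT4A1, lower in IR_Pra. Both IR_Pra animals lay above both IR animals for 12 members (25.5%, against 27.3% of all genes) and below for 7 (14.9%, against 26.6%). The median log2 fold change of the members was -0.22, against -0.02 over all genes, and its sign turned with 1 animal: it was 1.63 without IR 1 and -0.37 without IR 2.

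For SULT1E1 the log2 fold change of IR_Pra over IR was 5.05 ± 0.79 (adjusted p = 0.0754) and for ABCB10 1.24 ± 0.23 (adjusted p = 0.0793). For SULT4A1 it was -2.45 ± 0.45 (adjusted p = 0.0789) and for CYP2A19 -1.40 ± 0.42 (adjusted p = 0.125). These 4 genes had groups that did not overlap between IR_Pra and IR. Since the IR animals enter both this comparison and the one with control, a low IR value lowers the one and raises the other. Of members with a mean of at least 1 CPM, the remaining genes at the ends of the list were UGT8 (1.82), CYP2C42 (1.26) and ABCB1 (1.12) at the top, and CYP2C34 (-6.33), CYP2C49 (-3.79), CYP1A1 (-1.64) and ABCC8 (-1.53) at the bottom, with adjusted p from 0.165 to 0.526. Without IR 1 the count of members past the threshold was 20 (42.6%, against 20.9% of all genes) and without IR 2 it was 12 (25.5%, against 12.8%), each again from a fit with 1 IR animal. SULT1E1, ABCB10 and SULT4A1 were called both times in the same direction, and CYP1A1 and CYP4F2 both times in opposite directions.

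Setting IR_Pra against control asked how irradiated and treated animals differed from those given neither. Again no member passed with edgeR's quasi-likelihood test, as was the case for all genes (0%), and DESeq2 and limma voom called 0 members too (DESeq2 called 0.412% of the genes it gave an adjusted p). At an unadjusted p under 0.05 there were 2 members, CYP2A19 and ABCC5, both higher in IR_Pra (4.26%, against 3.42% of all genes). Both IR_Pra animals lay below both controls for 18 members (38.3%, against 20.0% of all genes) and above for 12 (25.5%, against 20.8%). The median log2 fold change was -0.33, against 0.00 over all genes. Among members with a mean of at least 1 CPM, CYP2D25 (3.48 ± 1.79), CYP1A1 (1.97 ± 1.54) and CYP2A19 (1.47 ± 0.43) had the highest values, and CYP2C34 (-2.88 ± 2.55), CYP2C49 (-2.39 ± 1.78), CYP3A29, CYP3A46 (-2.16 ± 1.47) and CYP2B22 the lowest. SULT1E1 in IR_Pra, 144 ± 24.9 CPM, remained under control, 375 ± 12.5 CPM (SD, n = 2 each), with a log2 fold change of -1.38 ± 0.67 and an unadjusted p of 0.0865.

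**Figure D5:**
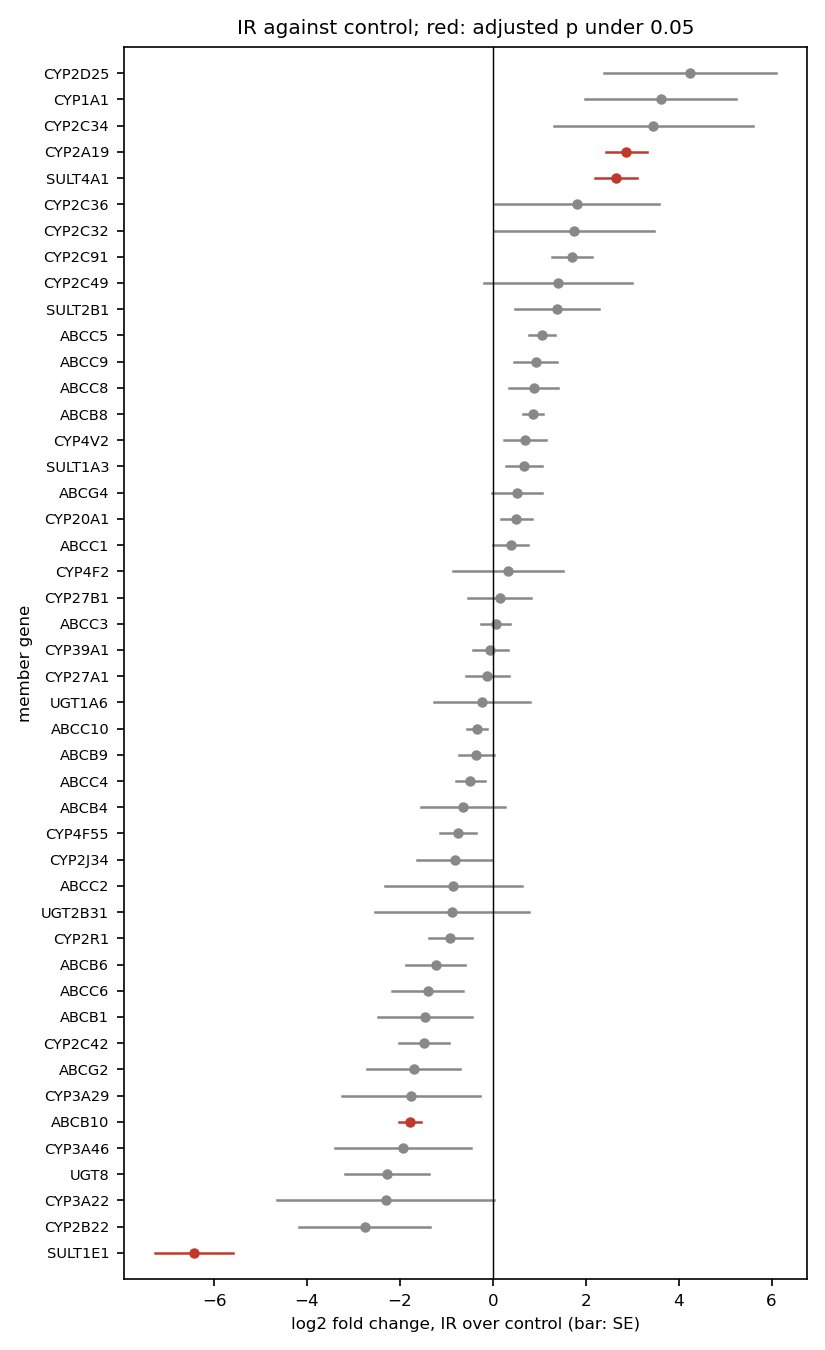
Log2 fold change of IR over control for 46 of the 47 tested members, ordered by size, with bars of 1 standard error from the quasi-likelihood fit. The 4 members with an adjusted p under 0.05 are red; several larger estimates, such as CYP2D25 and CYP2B22, have standard errors over 1.

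Regulators of these genes and their partner enzymes were measured from fixed lists. Of 20 regulators and partners 19 were found and tested, and 1 was lower in IR than in control: PPARA, a fatty acid sensor that controls CYP4 genes in mouse liver, with 12.3 and 7.39 CPM in IR_Pra, 1.49 and 1.31 CPM in IR and 16.9 and 12.4 CPM in control (log2 fold change -3.39 ± 0.40, adjusted p = 0.0359). None was higher, and the list's median log2 fold change was -0.30. NR1I2 (the pregnane X receptor), the main inducer of CYP3A and ABCB1 by drugs, had 187 and 169 CPM in IR_Pra, 174 and 24.5 CPM in IR and 139 and 173 CPM in control, low in IR 2 alone. AHR, which controls CYP1A1, had 22.9 and 19.8 in IR_Pra, 8.23 and 14.9 in IR and 19.9 and 14.7 in control (CPM). HNF4A, a regulator of enterocyte genes, had 204 and 218 CPM in IR_Pra, 108 and 59.5 CPM in IR and 231 and 287 CPM in control, with IR below the other groups (log2 fold change -1.63 ± 0.35, adjusted p = 0.0520, not past the threshold). POR, the reductase that feeds electrons to all microsomal P450 enzymes, had 164 and 218 in IR_Pra, 472 and 81.4 in IR and 204 and 239 in control (CPM), highest in IR 1 and lowest in IR 2 like CYP4F2 and UGT1A6. PGRMC1 and CYB5A, a haem-binding partner and cytochrome b5, were next in FPKM and had log2 fold changes of -0.22 ± 0.43 and 0.18 ± 0.70.

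Of 31 other enzymes of oxidation, reduction and hydrolysis 28 were found (29 rows, 26 tested). DPYD, which degrades pyrimidines and the drug fluorouracil, was lower in IR, with 82.0 and 65.9 CPM in IR_Pra, 26.5 and 26.4 CPM in IR and 97.4 and 99.2 CPM in control (log2 fold change -1.90 ± 0.23, adjusted p = 0.0359), and none was higher. The list's median was 0.28. The most abundant in FPKM were MAOA, ALDH1A1 and AKR1A1, with log2 fold changes of 0.31 ± 0.64, 1.78 ± 0.76 and 0.25 ± 0.37 in IR over control. Of 16 genes for other conjugations and their donors 13 were found and 11 tested. GLYATL3, of the glycine acyltransferases, had 0 reads in IR and 64 in control, at least 22.9-fold lower there with a floor of 3 reads over the group (adjusted p = 0.0472). No gene of that list was higher, and its median was -0.09. UGDH and HNMT, among its most abundant genes in FPKM, had log2 fold changes of -0.67 ± 0.46 and 0.49 ± 0.32. In the comparisons of IR_Pra with IR and with control, 0 genes of the 3 lists passed edgeR's quasi-likelihood test, and 12 and 0 genes had an unadjusted p under 0.05 (21.4% and 0% of the 56 tested, against 24.5% and 3.42% of all genes). The 3 calls in IR over control were 5.36% of the 56, against 2.68% of all genes lower there.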

How the data were processed

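The deposited table gives per gene and library a read count and an FPKM value (reads scaled to transcript length and library size), per the file headers. Per the submitters' processing notes, the authors used bcl2fastq 2.20.0, Trimmomatic (release not given in the sources used here), HISAT2 2.1.0 and StringTie 2.1.3b, with the builds Sscrofa11.1 and GRCh38, the role of the second not being given. RNA was extracted with Trizol, per the labels' protocols. The counting method was not given in the sources used here. Deposited FPKM values followed from counts and 1 length per gene within 1% in 71.8% of entries with 20 or more reads.

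All 30352 named rows matched RefSeq genes of Sscrofa11.1 by Entrez ID, from which coordinates come. The 24 unnamed rows (0.00906% to 0.0385% of reads) were left out. In R 4.3.3, edgeR 4.0.16 kept 18197 genes (filterByExpr by group), scaled them by TMM and fitted 1 quasi-likelihood model to all 6 libraries (group means only, 3 residual degrees of freedom). Two-sided F tests gave p, adjusted by Benjamini-Hochberg over all genes within a comparison, with a threshold of 0.05. The standard error is the absolute log2 fold change over the square root of F. The common biological coefficient of variation was 0.431. Counting error limits genes near or under 1 CPM most. Only the main edgeR fit was tried on simulated counts, which were drawn with less spread than these data have. The alternatives below were not. Alternatives were DESeq2 1.42.0, limma 3.58.1 (voom, and trend on log2 FPKM with pseudocounts of 1 and 0.1), other scalings and filters, removal of the length trend, the 4 libraries of a comparison alone, a replicate block, each library left out, another threshold and, added after seeing the data, edgeR's legacy fit. Named were members past the threshold, the 5 highest and 5 lowest log2 fold changes of members with a mean of at least 1 CPM, the 3 most abundant per family (6 for CYP), a list of well-known members, and from the lists of other genes those past the threshold and up to 3 with the highest FPKM; other members were named after their values were seen. Members and lists were chosen with earlier results of these data known. Each library is a separate animal, and p-values measure the spread between 2 animals a group. Results of 2 genes that these rules would name are not reported here. No sequences were printed.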

Additional observations from a re-analysis of the deposited data

How the results depend on the processing

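For IR over control, 4 members passed, against 11 with DESeq2, 8 at an adjusted p under 0.10, and 0 with the 4 libraries alone. Leaving out 1 library gave 0 to 27 members. Among all genes 1103 passed, against 4131 with DESeq2, 403 and 543 with limma trend on log2 FPKM (pseudocounts 1 and 0.1), 475 with library size alone, 3452 at an adjusted p under 0.10, 0 with the 4 libraries alone, and 0 to 5366 leaving out 1 library. For IR_Pra over IR, 0 members passed, against 5 with DESeq2, 4 at an adjusted p under 0.10 and 0 to 20 leaving out 1 library; among all genes it was 1, against 2872, 1328 and 0 to 3795, and 0 with limma voom, 10 with limma trend (pseudocount 0.1), 2 with library size alone, 2 with no filter and 0 with the 4 libraries alone. For IR_Pra over control, DESeq2 called 72 genes and 0 members, and all other settings called 0. Replicate numbers were shared across groups, but each library is its own animal: deviations from the group means correlated at 0.0642 (IR with control), -0.133 (IR_Pra with IR) and -0.149 (IR_Pra with control), and a replicate block left 0 members and 0 genes in every comparison. The members' median log2 fold change ran from -1.63 to 0.12 (IR over control) and from -0.37 to 1.63 (IR_Pra over IR) leaving out 1 library, both extremes arising from an IR library, and for IR_Pra over control it was -0.086 and -0.18 with limma trend (pseudocounts 1 and 0.1), against -0.33. The sign of the IR_Pra over IR median was positive with limma voom (0.43) and limma trend, and the cause was not tested. Single genes changed sign in 9 cases. In IR over control, CYP2C34 was -1.70 with limma voom, and leaving out 1 library gave -8.28 to 4.45 for CYP2C34, -1.35 to 4.59 for CYP1A1 and -1.88 to 5.23 for CYP2D25. In IR_Pra over IR, CYP1A1 was 0.40 with limma voom and 0.000328 with limma trend (pseudocount 0.1), and leaving out 1 library gave -2.64 to 3.32 for CYP1A1, -11.85 to 5.40 for CYP2C34 and -4.79 to 1.87 for CYP2C49; each positive end in this comparison, and each negative end in the other, came without IR 1. Values of CYP2C34 with 1 group at 0 reads depend on the prior count. Of the remaining gene values 515 kept direction and call, 27 lost a call and 27 gained one. Each group has 2 animals, so that an absent call says little; genes under 1 CPM, among them CYP2C32 and CYP2C36 in most libraries, are limited by depth as well.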

Other observations

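Rows that carry no family symbol but whose deposited product name belongs to one of these families numbered 55, all tested. They were found after values had been seen. In IR over control 10 were lower past the threshold (18.2%, against 2.68% of all genes) and 0 higher (against 3.39%), and 47 had a negative log2 fold change (85.5%, against 48.7% of all genes; median -2.003). Many share a product name and may share reads, so that they do not count as independent. None passed in the other comparisons, where edgeR's quasi-likelihood test gave unadjusted p under 0.05 for 23 rows in IR_Pra over IR (41.8%, against 24.5% of all genes) and 3 in IR_Pra over control (5.45%, against 3.42%).

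The largest group was annotated as multidrug resistance-associated protein 4, the exporter that ABCC4 encodes. It held 19 rows, 4 on chromosome 11 beside ABCC4 and 15 on unplaced sequence. Summed, they stood at 469 and 318 CPM in IR_Pra, 56.8 and 51.9 CPM in IR and 463 and 504 CPM in control, and both IR animals were low. B cell genes were low in both as well, with sums of 119 and 310 CPM in IR_Pra, 16.1 and 15.0 CPM in IR and 384 and 233 CPM in control. Enteroendocrine genes had a median difference from the control mean, on log2(CPM + 0.5), of -1.15 in IR 1 and -1.12 in IR 2. The part of these cells in the result was not tested. All 19 had a negative log2 fold change in IR over control, 9 past the threshold, with a median of -3.21, also with the 2 rows without a read in IR set to their bound. LOC100738425 (chromosome 11, 64861069 to 64996684) had 122 and 74.5 CPM in IR_Pra, 8.27 and 9.27 CPM in IR and 118 and 117 CPM in control (log2 fold change -3.75 ± 0.32, adjusted p = 0.0331). In IR_Pra over IR it was 3.49 ± 0.32 (adjusted p = 0.0612). ABCC4 itself, at 11.2 and 11.3 CPM in IR_Pra, 7.08 and 9.03 CPM in IR and 13.2 and 9.29 CPM in control, had a log2 fold change of only -0.48 ± 0.31 in IR over control. Rows of like sequence can exchange reads, and the sequences of these rows were not compared, so the levels of single rows are uncertain.

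A multidrug resistance protein 1 row near ABCB1 on chromosome 9 (LOC100522455) was lower in IR, with 11.5 and 10.7 CPM in IR_Pra, 2.69 and 0.898 CPM in IR and 18.9 and 10.3 CPM in control (log2 fold change -3.03 ± 0.61, adjusted p = 0.0485). The cytochrome P450 1B1 row (LOC100625479) was highest in both IR animals, at 11.97 and 5.70 CPM in IR_Pra, 18.4 and 19.2 CPM in IR and 2.35 and 4.67 CPM in control (log2 fold change 2.42 ± 0.51, adjusted p = 0.0508, just short of the threshold). The cytochrome P450 2W1 row (LOC100522669) varied between animals of one group, with 74.4 and 33.0 CPM in IR_Pra, 2.86 and 9.98 CPM in IR and 12.3 and 78.0 CPM in control. Both IR animals lay below all others. The log2 fold change was -2.81 ± 1.03 in IR over control and 3.06 ± 1.04 in IR_Pra over IR (edgeR's quasi-likelihood test, adjusted p = 0.136 and 0.152). Rows annotated as UGT2 (10), CYP2J2 (4), CYP4F (4) and ABCG2-like (2) had no call, and their sums were lowest in IR 2, at 21.5, 33.6, 28.7 and 10.5 CPM. Of the 10 UGT2 rows, 8 had a negative log2 fold change in IR over control. Among them the UDP-glucuronosyltransferase 2A1 row (LOC100624788, chromosome 8, 66646241 to 66689685) was low in both IR animals. It had 60.6 and 57.6 CPM in IR_Pra, 6.07 and 0.990 CPM in IR and 35.9 and 83.1 CPM in control. Its log2 fold change was -4.08 ± 0.91 in IR over control (edgeR's quasi-likelihood test, adjusted p = 0.0558).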
